A study of Mus musculus with 5 samples.

Results

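Potassium channel genes were followed across the cells of 5 mouse synovial sarcomas (SyS). They were taken as every gene whose symbol begins with Kcn, continues with family letters and ends in a number, a rule that uses the name and no measured value. It selected 92 of the 32286 features in the count matrices. The tumours came from mice with the *hSS2* allele, which expresses the SS18::SSX2 fusion from the Rosa26 locus once TATCre protein injected into a limb has removed a stop, and all 5 tumours, the comparison groups included, carried this fusion. Cre was delivered as protein, so no promoter confines the recombined cells to 1 lineage. Tumours were taken at morbidity and dissociated, and the labels give the histology of each. Of the 5, 2 were biphasic (BP) and 1 was monophasic (MP). A further tumour, MP+BP, mixed both patterns, and the last, PD+MP, joined poorly differentiated to monophasic areas. Biphasic tumours hold epithelial structures beside spindle cells, whereas monophasic tumours are made of spindle cells. Histology was read from tissue next to the digested piece. Labels with 1 tumour have no replicate error, and whether both BP tumours grew in 1 mouse was not stated.

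Potassium channels let potassium ions leave or enter a cell and so hold its resting voltage and repolarize it. Voltage-gated pores open when the membrane depolarizes, and electrically silent modifier subunits join voltage-gated pores without forming channels of their own. Inward rectifiers and tandem-pore leak channels work near the resting voltage, ion-activated channels open with intracellular calcium or sodium, and accessory subunits alter the gating or traffic of a pore. In vessel walls, mural cells are known for the channel that metabolic nucleotides close and open, endothelial cells for a strong inward rectifier, and immune cells for calcium-activated channels.

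Values are sums of unique molecular identifiers (UMIs, single captured RNA molecules) over the cells of 1 class in 1 tumour, given as CPM, the UMIs of a gene in every 1000000 UMIs of that sum. Each molecule was counted from its 3′ end, so no correction for gene length applies. Of 51670 called cells 39559 passed the filters. Clusters named from marker genes gave 21285 SyS-like, 1260 pericyte-like, 2426 endothelial-like and 3863 macrophage-like cells. Summed SyS markers lay between 3250 and 5630 CPM in SyS-like sums and between 102 and 295 CPM in the other 3 classes. Pericyte markers reached 1070 to 1800 CPM in endothelial-like sums against 17400 to 22900 CPM in pericyte-like sums, and fibroblast markers reached 2560 to 4990 CPM in pericyte-like sums. A further 9437 cells (23.86%) in 5 clusters had SyS markers as their best class but leading genes or depth that barred the name, and were left unnamed. They made up 2.85% of the cells of PD+MP, 12.35% of MP, 29.0% of MP+BP, 32.51% of BP replicate 1 and 39.65% of BP replicate 2, and SyS-like cells 79.59%, 60.17%, 52.24%, 35.0% and 41.48% of the same tumours. PD+MP gave only 39 pericyte-like and 81 endothelial-like cells. Class sums held 49011101 to 73528061 UMIs for SyS-like, 256616 to 2748920 for pericyte-like, 582694 to 5680179 for endothelial-like and 2574916 to 6455040 for macrophage-like cells. Between any 2 libraries, 15 to 33 cell barcodes were shared.

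The promoters of 1 marking gene per class are shown, since these are the genes around which the class results turn. Each run is the 250 bases before the RefSeq start on build GRCm38.p6, read in the direction of transcription, with every CG dinucleotide in capitals. RefSeq promoters were matched for 67 of the 92 genes.
Kcnn3, SyS-like, chr3:89519914-89520163, plus strand: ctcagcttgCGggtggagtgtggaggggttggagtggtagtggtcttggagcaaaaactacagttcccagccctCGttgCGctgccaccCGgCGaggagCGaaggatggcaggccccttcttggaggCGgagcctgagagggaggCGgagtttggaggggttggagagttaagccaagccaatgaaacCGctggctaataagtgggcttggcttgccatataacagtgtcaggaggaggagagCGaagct
Kcnj8, pericyte-like, chr6:142571615-142571864, minus strand: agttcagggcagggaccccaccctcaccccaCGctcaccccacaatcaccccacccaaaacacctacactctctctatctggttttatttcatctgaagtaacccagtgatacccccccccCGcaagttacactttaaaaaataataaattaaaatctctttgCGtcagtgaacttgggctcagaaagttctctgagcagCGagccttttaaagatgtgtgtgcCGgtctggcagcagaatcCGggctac
Kcnj2, endothelial-like, chr11:111065914-111066163, plus strand: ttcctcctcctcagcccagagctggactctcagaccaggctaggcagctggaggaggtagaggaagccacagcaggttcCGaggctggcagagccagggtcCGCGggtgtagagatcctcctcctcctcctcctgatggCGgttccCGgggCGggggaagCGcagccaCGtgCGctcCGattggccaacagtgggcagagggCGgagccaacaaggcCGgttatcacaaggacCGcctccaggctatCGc
Kcnk13, macrophage-like, chr12:99964249-99964498, plus strand: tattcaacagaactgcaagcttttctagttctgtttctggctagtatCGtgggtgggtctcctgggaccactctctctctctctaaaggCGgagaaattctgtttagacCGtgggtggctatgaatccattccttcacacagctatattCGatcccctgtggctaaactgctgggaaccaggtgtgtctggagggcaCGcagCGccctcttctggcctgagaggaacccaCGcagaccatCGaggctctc
The letters CG read the same on both strands and were the sole motif searched. They occurred 10 times in the *Kcnn3* window, 6 times in that of *Kcnj8*, 14 times in that of *Kcnj2* and 8 times in that of *Kcnk13*. As many or more were found in 38.2%, 50.5%, 29.6% and 43.4% of all 27025 promoters. The median was 8 over the 67 matched genes and 6 over all promoters.

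All 92 genes together were counted at 362.5 ± 116.9 CPM in SyS-like sums, 761.6 ± 206.0 CPM in pericyte-like, 618.2 ± 199.3 CPM in endothelial-like and 242.0 ± 37.1 CPM in macrophage-like sums (mean ± SD, n = 5 tumours). The families behind those totals differed from class to class. Leak channels supplied 59.0% of the potassium channel UMIs in macrophage-like cells but 4.17% in pericyte-like and 3.13% in endothelial-like cells. Inward rectifiers supplied 33.5% in pericyte-like and 30.1% in endothelial-like cells against 4.12% in SyS-like cells. These high leak and inward rectifier shares rested mainly on single genes. Over all tumours, *Kcnk13* had 2808 UMIs in macrophage-like sums, and the next leak channel, *Kcnk6*, had 262. Pericyte-like sums held 1373 UMIs of *Kcnj8* and 18 of the next inward rectifier, *Kcnj6*. Endothelial-like sums held 3196 UMIs of *Kcnj2* and 268 of the next inward rectifier, *Kcnj8*. Voltage-gated pores made up 40.0% in endothelial-like, 36.0% in SyS-like, 11.4% in pericyte-like and 6.64% in macrophage-like cells. Averaged over the tumours, voltage-gated pores led in SyS-like cells at 36.0%, followed by leak channels at 23.6%, accessory subunits at 16.9% and ion-activated channels at 15.1%. The leak share of SyS-like cells ran from 13.8% to 47.7% between tumours. In MP the leak channel *Kcnk2* alone held 147.6 of the 388.1 CPM of all 92 genes.

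**Figure D1:**
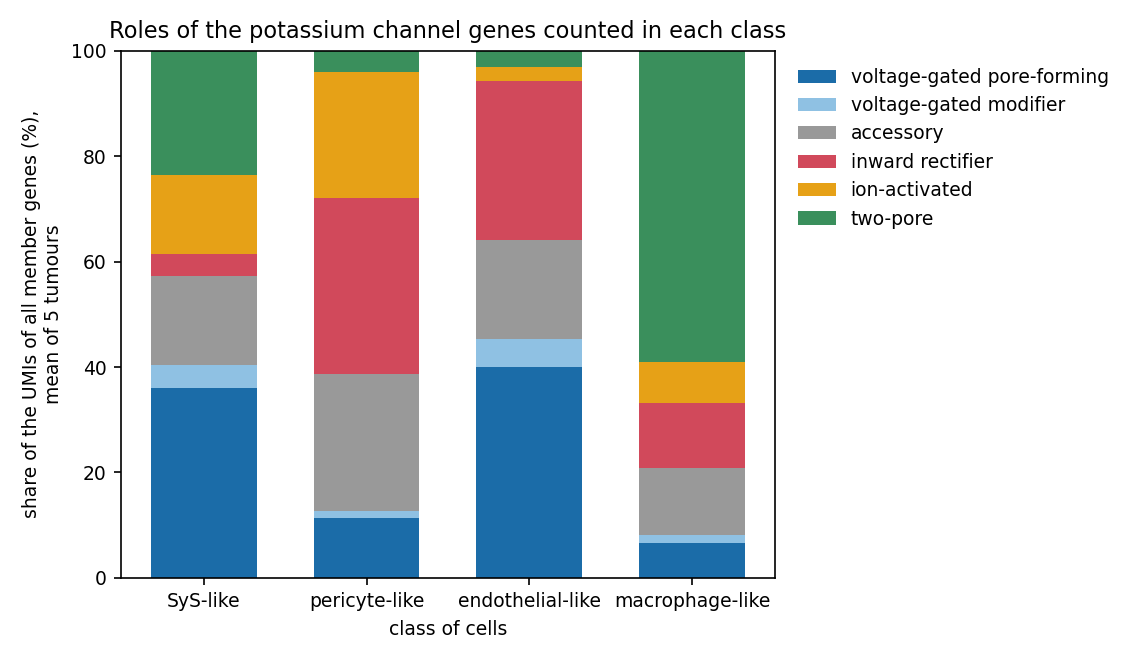
Share of all potassium channel UMIs (y axis, percent, mean of 5 tumours) that each role of channel gene supplied in the 4 classes of cells (x axis). Leak channels (labelled two-pore) fill 59.0% of the macrophage-like bar, while inward rectifiers fill 33.5% of the pericyte-like and 30.1% of the endothelial-like bars.

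To ask which channels mark which cells, class sums were compared with the tumour as a block, and a gene was said to mark a class when it was higher than in each of the other 3 classes. Differences and SE given below for a mark are those from the nearest class. The edgeR adjusted p beside them is the largest of the gene's 3 comparisons. That p can therefore belong to a class other than the nearest. The low-count filter passed 45 of the 92 genes among 14737 in all. Genes that did not pass included *Kcnd2*, *Kcna1* and *Kcnb2*, with 1663, 2407 and 881 UMIs in SyS-like sums. A gene can pass the filter through the class in which it is high, so the counts over tested genes are a description. Of the 45, 29 marked a class. SyS-like cells were marked by 11 genes (24.4% of those tested), where 14.2% of all genes tested marked them. Pericyte-like cells were marked by 6 (13.3%, all genes 5.81%), endothelial-like cells by 7 (15.6%, all genes 9.18%) and macrophage-like cells by 5 (11.1%, all genes 17.4%). The classes were themselves built from expression, but no potassium channel gene was among the genes used for clustering. Over the tested genes that were no clustering feature the shares were 14.5%, 4.3%, 7.86% and 14.5%.

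By role, voltage-gated pores marked SyS-like cells 4 times, endothelial-like cells 3 times, pericyte-like cells 1 time and macrophage-like cells 0 times, with 14 of 30 tested. Of 7 leak channels tested among 14, 3 marked SyS-like and 2 macrophage-like cells. Of 5 inward rectifiers tested among 15, 1 marked each class other than SyS-like. Ion-activated channels marked SyS-like cells 2 times and pericyte-like and macrophage-like cells 1 time each, with 6 of 8 tested. Of 10 accessory subunits tested among 15, 3 marked pericyte-like, 2 endothelial-like, 1 SyS-like and 1 macrophage-like cells. Of 3 silent modifiers tested among 10, 1 marked SyS-like and 1 endothelial-like cells.

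**Figure D2:**
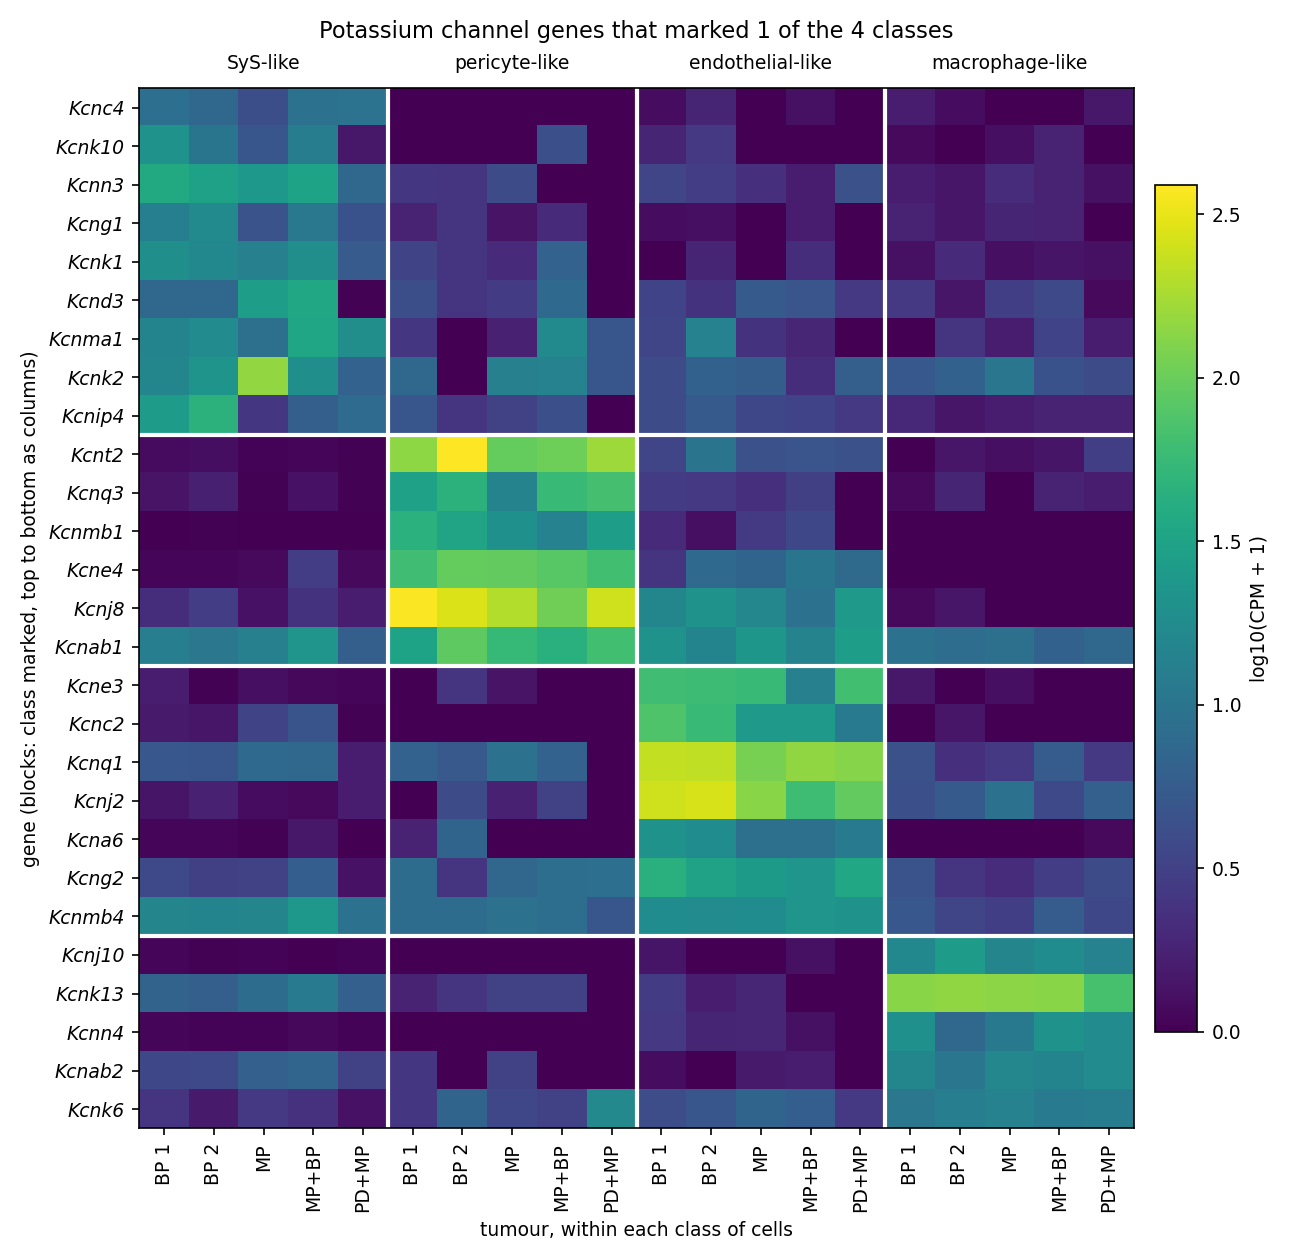
Heat map of 27 of the 29 marking genes (rows, in blocks by the class marked) in each class and tumour (columns), coloured by log10(CPM + 1). Kcnj8 and Kcnt2 in pericyte-like, Kcnq1 and Kcnj2 in endothelial-like and Kcnk13 in macrophage-like columns are the brightest blocks, and the SyS-like block is dimmer and uneven between tumours.

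Pericyte-like cells had the highest mean potassium channel level, and the inward rectifier *Kcnj8* had the highest mean among their marks. *Kcnj8* (chr6:142564837-142571614, minus strand, GRCm38), the pore of the vascular ATP-sensitive channel, stood at 378.4 and 284.3 CPM in BP replicates 1 and 2, 195.7 CPM in MP, 106.8 CPM in MP+BP and 253.3 CPM in PD+MP. Endothelial-like sums held 8.54 to 24.03 CPM, SyS-like sums 0.354 to 1.98 CPM and macrophage-like sums 3 UMIs in all. Every pericyte-like value lay above every value of the other classes. The smallest of the 3 differences, against endothelial-like cells, was 3.92 ± 0.36 on the log2 scale (SE, edgeR adjusted p = 1.09e-07). Pericyte markers were themselves found in the endothelial-like sums at the levels given above, and their part in the endothelial-like value was not tested, nor was that of the fibroblast markers in the pericyte-like sums.

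*Abcc9* (chr6:142587862-142702315, minus strand, GRCm38) lies beside *Kcnj8* and encodes the sulfonylurea receptor that completes the same channel. Its level was 1149 and 1391 CPM in pericyte-like sums of BP replicates 1 and 2, 735.6 CPM in MP, 470.1 CPM in MP+BP and 904.1 CPM in PD+MP. The tumour with least *Kcnj8* was thus also that with least *Abcc9*. *Abcc9* was 3.31 ± 0.23 log2 units above the nearest class, endothelial-like cells at 92.0 ± 37.3 CPM (edgeR adjusted p = 4.63e-09).

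*Kcnt2*, a sodium-activated channel (chr1:140246158-140612067, plus strand), was counted in pericyte-like cells at 140.7 and 388.2 CPM in BP replicates 1 and 2, 93.9 CPM in MP, 102.4 CPM in MP+BP and 159.8 CPM in PD+MP. BP replicate 2 stood apart from the other 4, yet the lowest pericyte-like value was above 8.95 CPM, the highest elsewhere. The smallest difference was 5.16 ± 0.39 log2 units against endothelial-like cells (edgeR adjusted p = 1.24e-08). SyS-like sums held *Kcnt2* at 0.028 to 0.248 CPM.

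Accessory subunits followed. *Kcne4*, a single-span subunit that restrains several voltage-gated pores, lay between 61.2 and 93.8 CPM in pericyte-like sums, between 1.46 and 9.12 CPM in endothelial-like sums and at 0 UMIs in macrophage-like sums (pooled ratio at least 657-fold). *Kcnmb1*, the smooth muscle subunit of the large-conductance calcium-activated (BK) channel, lay between 13.2 and 44.5 CPM, with 0 UMIs in macrophage-like and 4 UMIs in SyS-like sums. The BK pore gene *Kcnma1* itself was at 4.54 ± 6.85 CPM in the same pericyte-like sums. *Kcnmb1* lies within *Kcnip1* on the opposite strand. *Kcnq3*, a voltage-gated pore of the slow current that steadies neurons, was at 13.5 to 66.2 CPM and the cytoplasmic subunit *Kcnab1* at 31.0 to 88.0 CPM. The smallest differences of these 4 genes were 4.04 ± 0.56 (*Kcne4*), 4.24 ± 0.58 (*Kcnmb1*), 4.50 ± 0.58 (*Kcnq3*) and 1.496 ± 0.35 (*Kcnab1*) log2 units, with edgeR adjusted p between 7.01e-06 and 0.00232. All 6 pericyte-like calls held in every alternative in which the gene was tested.

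Endothelial-like cells were set apart by a second inward rectifier and by voltage-gated pores. *Kcnj2* (chr11:111066164-111076821, plus strand), the classical strong rectifier that clamps the resting voltage, was counted at 251.5 and 269.1 CPM in BP replicates 1 and 2, 135.0 CPM in MP, 60.6 CPM in MP+BP and 92.7 CPM in PD+MP. Macrophage-like sums were next at 2.72 to 8.53 CPM, far below the lowest endothelial-like sum. The smallest difference, between those 2 classes, was 4.72 ± 0.36 log2 units (largest edgeR adjusted p = 1.27e-08).

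*Kcnq1* and *Kcne3*, a voltage-gated pore and the single-span subunit that can hold it open, were both endothelial-like marks. *Kcnq1* (chr7:143106362-143427042, plus strand) was counted at 221.9 and 219.3 CPM in BP replicates 1 and 2, 113.2 CPM in MP, 142.5 CPM in MP+BP and 130.4 CPM in PD+MP, and no other class exceeded 8.37 CPM. It overlaps *Kcnq1ot1* on the opposite strand, and whether counting used strand is not stated in the sources used here. *Kcne3* was counted at 61.2, 58.2, 55.1, 12.4 and 63.5 CPM in BP replicates 1 and 2, MP, MP+BP and PD+MP, so MP+BP was the low tumour. The smallest difference of *Kcnq1* was 4.999 ± 0.491 log2 units, against pericyte-like cells (edgeR adjusted p = 2.54e-07). *Kcne3* had 2 UMIs in all pericyte-like sums, a pooled ratio of 145-fold (95% counting interval 40.1 to 1202). *Kcne1*, another partner of this pore, was not tested. It had 12 UMIs among 18035879 in endothelial-like sums and 193 among 318466085 in SyS-like sums. At least 1 UMI of it was found in 0.495% and 0.686% of those cells.

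Among the other endothelial-like marks, the fast voltage-gated pore *Kcnc2* ranged from 10.3 CPM in PD+MP to 74.0 CPM in BP replicate 1 and had 0 UMIs in pericyte-like sums. Its smallest difference was 5.43 ± 0.74 log2 units, against SyS-like cells (edgeR adjusted p = 0.000265). The Shaker-type pore *Kcna6* stood at 12.7 ± 5.5 CPM and the silent modifier *Kcng2* at 30.8 ± 8.4 CPM, 3.84 ± 0.90 and 2.42 ± 0.54 log2 units above pericyte-like cells (edgeR adjusted p = 0.00237 and 0.00163). *Kcnmb4*, a BK subunit best known from neurons, was only 0.65 ± 0.19 log2 units above SyS-like cells, at 18.7 ± 2.2 against 14.7 ± 5.2 CPM (edgeR adjusted p = 0.00775). That call was lost without further scaling (adjusted p = 0.121) and without the low-count filter (adjusted p = 0.068).

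Macrophage-like cells had the lowest mean potassium channel level, and the leak channel *Kcnk13* had the highest mean among their marks. *Kcnk13* (chr12:99964499-100062682, plus strand), which sets the resting voltage of brain macrophages, was counted at 132.6 and 144.8 CPM in BP replicates 1 and 2, 135.9 CPM in MP, 135.2 CPM in MP+BP and 68.2 CPM in PD+MP. The lowest of these, in PD+MP, was still above 10.8 CPM, the highest SyS-like value. The smallest difference was 4.78 ± 0.26 log2 units against SyS-like cells (edgeR adjusted p = 1.98e-10). SyS-like sums held *Kcnk13* at 5.13 to 10.8 CPM, while summed macrophage markers there were 35.1 to 67.0 CPM against 13300 to 15100 CPM in macrophage-like sums.

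The inward rectifier *Kcnj10*, known for potassium uptake by glia, was counted at 15.2 and 26.0 CPM in BP replicates 1 and 2, 13.9 CPM in MP, 17.1 CPM in MP+BP and 13 CPM in PD+MP. Pericyte-like sums had 0 UMIs of it (pooled ratio at least 32.8-fold) and endothelial-like sums 3 (100.9-fold, counting interval 34.3 to 492, edgeR adjusted p = 7.10e-06). *Kcnn4*, the intermediate-conductance calcium-activated channel of blood cells, was at 14.5 ± 5.9 CPM in macrophage-like sums against 0.736 ± 0.639 CPM in endothelial-like sums (4.205 ± 0.388 log2 units, edgeR adjusted p = 6.40e-07). The cytoplasmic subunit *Kcnab2* stood at 13.8 ± 2.7 CPM and the leak channel *Kcnk6* at 11.2 ± 1.3 CPM, 2.59 ± 0.30 and 1.81 ± 0.43 log2 units above the nearest class. All 5 calls held in every alternative in which the gene was tested. *Kcna3*, a voltage-gated pore of lymphocytes and activated macrophages, had 26 UMIs over all 4 classes and was not tested.

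SyS-like cells were marked by 11 genes. *Kcnn3*, a small-conductance calcium-activated channel (chr3:89520164-89675132, plus strand), was counted at 36.1 and 29.6 CPM in BP replicates 1 and 2, 22.8 CPM in MP, 31.1 CPM in MP+BP and 6.37 CPM in PD+MP. The tumour PD+MP was lowest but still above 3.43 CPM, the highest value in any other class. Its smallest difference was 3.68 ± 0.47 log2 units, against pericyte-like cells (edgeR adjusted p = 4.56e-06).

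The silent subunit *Kcng1*, which acts only together with voltage-gated pores, also marked SyS-like cells. *Kcng1* (chr2:168260117-168281736, minus strand) was counted at 12.1, 15.9, 3.64, 9.99 and 3.51 CPM in BP replicates 1 and 2, MP, MP+BP and PD+MP. It was lowest in PD+MP, close to MP. The smallest difference was 3.29 ± 0.55 log2 units, against pericyte-like cells (edgeR adjusted p = 8.09e-05). *Amigo1*, an adhesion protein that associates with voltage-gated channels, was at 4.88 ± 0.78 CPM in SyS-like and 1.83 ± 0.53 CPM in macrophage-like sums (0.83 ± 0.33 log2 units, edgeR adjusted p = 0.0313). Its call was lost in 8 of 14 alternatives, including each in which 1 tumour was left out, with adjusted p up to 0.138.

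*Kcnc4*, a fast voltage-gated pore, was counted between 3.15 CPM in MP and 8.78 CPM in PD+MP in SyS-like sums and at 0 UMIs in pericyte-like sums (pooled ratio at least 13.1-fold). Macrophage-like cells came nearest, 3.87 ± 0.49 log2 units lower (edgeR adjusted p = 0.000137).

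The leak channels *Kcnk1*, *Kcnk2* and *Kcnk10* also marked SyS-like cells. *Kcnk1*, a weakly rectifying leak channel, was counted at 18.6, 15.3, 12.5, 18.04 and 4.54 CPM in BP replicates 1 and 2, MP, MP+BP and PD+MP, 2.50 ± 0.49 log2 units above pericyte-like cells (edgeR adjusted p = 0.000391). *Kcnk2*, opened by stretch and lipids, was counted at 14.3, 20.9, 147.6, 18.3 and 5.55 CPM in the same order, so MP held it far above the rest. Its call (1.72 ± 0.48 log2 units above macrophage-like cells, edgeR adjusted p = 0.0222) was lost without MP (adjusted p = 0.241) or BP replicate 2 (0.0627) and with fibroblast-like cells added to the mural class (0.172), and the gene overlaps 2900042K21Rik on its own strand. *Kcnk10*, its close relative, was counted at 19.8, 9.14, 3.90, 11.4 and 0.479 CPM, with 3 UMIs in pericyte-like sums (pooled ratio 15.8-fold, counting interval 5.40 to 76.6, edgeR adjusted p = 0.00157). Its call was lost when doublets were kept (adjusted p = 0.224).

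The remaining SyS-like marks rested on fewer tumours. *Kcnd3*, a transient-current pore that overlaps Gm43847 on its own strand, was counted at 6.39, 6.57, 27.5, 35.1 and 0.028 CPM in BP replicates 1 and 2, MP, MP+BP and PD+MP, the last value resting on 2 UMIs. *Kcnip4*, a calcium-binding partner of such pores, was counted at 25.2, 45, 1.55, 5.01 and 7.10 CPM, high in both BP tumours instead. Their smallest differences were 2.02 ± 0.46 and 1.67 ± 0.56 log2 units, both against endothelial-like cells (edgeR adjusted p = 0.00383 and 0.0404). The *Kcnd3* call was lost without MP (adjusted p = 0.0938), without the tumour block (0.119), with DESeq2 (0.0848) and with fibroblast-like cells in the mural class (0.0556). The *Kcnip4* call was lost without either BP tumour (0.165 and 0.22 for replicates 1 and 2), without PD+MP (0.0749) and in 2 other alternatives.

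*Kcnma1*, the BK pore, was counted in SyS-like sums at 13.9, 16.8, 8.12, 32.2 and 18.2 CPM in the same order of tumours. It was 1.98 ± 0.70 log2 units above pericyte-like cells (edgeR adjusted p = 0.0273). That call was lost without BP replicate 1, MP or PD+MP (adjusted p = 0.0849, 0.121 and 0.0512), without the tumour block (0.0892) and with doublets kept (0.0965). With fibroblast-like cells added to the mural class its direction turned (log2 difference -0.36, adjusted p = 0.721), and those 148 cells, 123 of them from PD+MP, held *Kcnma1* at 125 CPM.

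Within the tumours, 2 of the unnamed clusters held far more *Kcnma1* than other cells with SyS markers. In cluster 7 it stood at 307.4, 276.1, 246.9, 228.5 and 246.2 CPM in BP replicates 1 and 2, MP, MP+BP and PD+MP, against 13.2, 17.1, 8.32, 41.6 and 21.8 CPM in the other cells with SyS markers of the same tumour. All 5 tumours showed the difference, by 5.49-fold in MP+BP up to 29.7-fold in MP. Cluster 22 held 371.1 CPM in BP replicate 2, 306.5 CPM in MP+BP and 325.6 CPM in PD+MP. Collagen genes and *Kcnma1* itself were among the 10 leading genes of both clusters, whose cells were left out of the SyS-like class. These are values without a test, from clusters chosen after their values were seen.

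**Figure D3:**
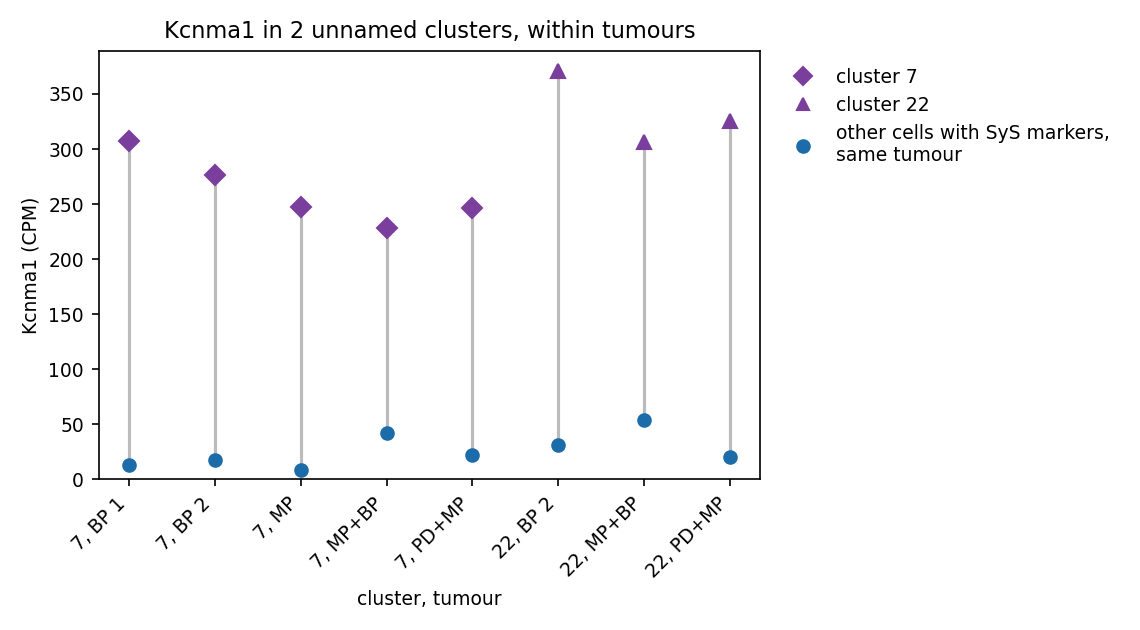
Kcnma1 level (y axis, CPM) in unnamed clusters 7 (diamonds) and 22 (triangles) and in all other cells with SyS markers of the same tumour (circles), joined for each tumour (x axis). The cluster values lie between 228.5 and 371.1 CPM and the others between 8.32 and 54.3 CPM.

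Other genes of potassium transport were counted in the same fit. Of 12 pump genes tested among 14, 3 marked SyS-like, 3 pericyte-like, 0 endothelial-like and 3 macrophage-like cells. Over all genes tested, 14.2%, 5.81%, 9.18% and 17.4% marked these classes in that order. The shorter lists below have the same background, and no list was tested as a set. Pericyte-like cells held the beta subunit *Atp1b2* (131.7 ± 18.2 CPM) and the regulator *Fxyd1* (72.8 ± 31.2 CPM), 2.80 ± 0.17 and 3.79 ± 0.46 log2 units above the nearest class. SyS-like cells held the beta subunit *Atp1b1* and the regulators *Fxyd6* and *Fxyd7* at 27.9 ± 17.3, 22.4 ± 2.7 and 25.1 ± 19.5 CPM, 2.38 ± 0.36, 1.89 ± 0.59 and 2.98 ± 0.31 log2 units above the nearest class. The *Fxyd6* call was lost without MP (adjusted p = 0.0761), and the *Fxyd6* and *Atp1b1* calls with fibroblast-like cells in the mural class (0.246 and 0.126).

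In macrophage-like cells the pump regulator *Fxyd5* was higher by 0.79 ± 0.24 log2 units. Without further scaling that call was lost (adjusted p = 0.106). Of 6 cotransporters and pacemaker channels tested among 11, 1 marked each class other than endothelial-like. The pacemaker channel *Hcn2* marked SyS-like cells (1.76 ± 0.52 log2 units) and the sodium-potassium-chloride importer *Slc12a2* pericyte-like cells (2.01 ± 0.22). The *Hcn2* call was lost without BP replicate 1 or MP+BP (adjusted p = 0.0541 and 0.0645). Of 4 channel partner genes tested among 12, *Abcc9* and *Amigo1* were the marks.

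To ask how the channels of tumour cells vary with histology, SyS-like sums were compared by label. Summed potassium channel levels were 427.9 and 422.2 CPM in BP replicates 1 and 2, 388.1 CPM in MP, 419.0 CPM in MP+BP and 155.2 CPM in PD+MP. The total was lowest in PD+MP. Of 76 genes tested here among the 92, 51 (67.1%) had their lowest value in PD+MP, as did 36.8% of the 20505 genes tested, and 30 (39.5%) had their highest in MP+BP, as did 20.9%.

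Histologies with BP (3 tumours) were then compared with those lacking it (2 tumours). By edgeR 0 of the 76 genes passed, against a background of 0% of 20505 genes. The smallest adjusted p was 0.525 over these 76 and 0.507 over all genes. At an unadjusted p under 0.05 there were 18 potassium channel genes, all higher with BP, and 1848 genes in all (9.01%). DESeq2 called 6 of the 76 (455 of all genes), namely *Kcnq5*, *Kcng1*, *Kcnmb2*, *Kcnd2*, *Kcnb2* and *Kcnq3*, all higher with BP. In 28 genes (36.8%) the 3 tumours with BP all lay above the 2 without, where 17.1% of all genes did. In 1 gene (1.32%), *Kcnab3*, they all lay below, where 9.65% of all genes did. *Kcnab3*, a cytoplasmic subunit, was counted at 0.558 to 1.56 CPM with BP and at 1.79 and 2.35 CPM in MP and PD+MP. The median log2 difference was 0.63 over the 76 and -0.02 over all genes. With the unnamed cells added, 27 and 1 genes were separated in this way, 26 of the 27 being among the 28.

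*Kcnq5*, a pore of the slow steadying current, had the highest BP levels of those 6. It was counted at 87.3 and 83.2 CPM in BP replicates 1 and 2, 15.4 CPM in MP+BP, 3.79 CPM in MP and 4.16 CPM in PD+MP. In these SyS-like sums both BP tumours were high, MP+BP lay between, and MP and PD+MP were low. The log2 difference was 3.87 ± 0.83 (edgeR unadjusted p = 0.00359, adjusted p = 0.55), and DESeq2 gave an adjusted p of 1.77e-05. In the class comparison *Kcnq5* did not pass against pericyte-like cells (1.17 ± 0.69 log2 units, edgeR adjusted p = 0.173) but did when MP was left out (0.0197). With the unnamed cells added the values were 85.6, 75.8, 26.9, 4.21 and 9.17 CPM in BP replicates 1 and 2, MP+BP, MP and PD+MP. The unnamed cells alone held *Kcnq5* at 80.7, 59.1, 76.5, 14.8 and 251.2 CPM in the same order. Their highest value was thus in PD+MP, from 225 cells, so the SyS-like order of tumours did not hold in them.

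*Kcnb2* and *Kcnd2* were likewise high in BP and lowest in MP, and *Kcna1* was highest in MP+BP. *Kcnb2*, a voltage-gated pore of neurons, was counted at 5.12 and 7.55 CPM in BP replicates 1 and 2, 1.29 CPM in MP+BP, 0.313 CPM in MP and 0.592 CPM in PD+MP (log2 difference 3.27 ± 0.89, edgeR adjusted p = 0.55). *Kcnd2*, a transient-current pore, was counted at 9.57, 12.1, 3.96, 0.748 and 1.72 CPM in the same order (2.69 ± 0.68, adjusted p = 0.55). Its value in the 225 unnamed cells of PD+MP was 149.8 CPM, and with them added PD+MP stood at 4.72 CPM against 0.824 CPM in MP. *Kcna1*, a Shaker-type pore of axons, was counted at 11.3, 10.4, 15.2 and 3.58 CPM in BP replicates 1 and 2, MP+BP and MP, and at 0 UMIs in PD+MP (adjusted p = 0.613).

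Some genes were highest in a tumour other than the 2 BP tumours. *Kcnk18*, a leak channel of sensory neurons, was counted at 5.76 CPM in PD+MP and at 0.215 to 0.714 CPM in the other 4 tumours. *Kcnn2*, a small-conductance calcium-activated channel, was counted at 6.58 CPM in MP+BP and at 0.085 to 1.60 CPM elsewhere. *Kcnk2* stood at 147.6 CPM in MP against 5.55 to 20.9 CPM elsewhere, and *Kcnd3* at 27.5 CPM in MP and 35.1 CPM in MP+BP against 6.39 and 6.57 CPM in the BP tumours. The log2 differences by label were -2.70 ± 1.22 (*Kcnk18*), 2.65 ± 1.19 (*Kcnn2*), -2.17 ± 1.09 (*Kcnk2*) and 0.13 ± 1.83 (*Kcnd3*), none passing edgeR. Of the other genes named for known roles, SyS-like sums held *Kcnh1* at 2.64 to 7.13 CPM, *Kcnh2* at 1.27 to 3.08 CPM and *Kcnh3* at 1.45 to 5.28 CPM. *Kcns1* (at most 0.778 CPM) and *Kcna5* (at most 0.364 CPM) were low in every SyS-like sum. In the class comparison *Kcnh3* marked no class, but it passed as a SyS-like mark in 4 of 14 alternatives.

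**Figure D4:**
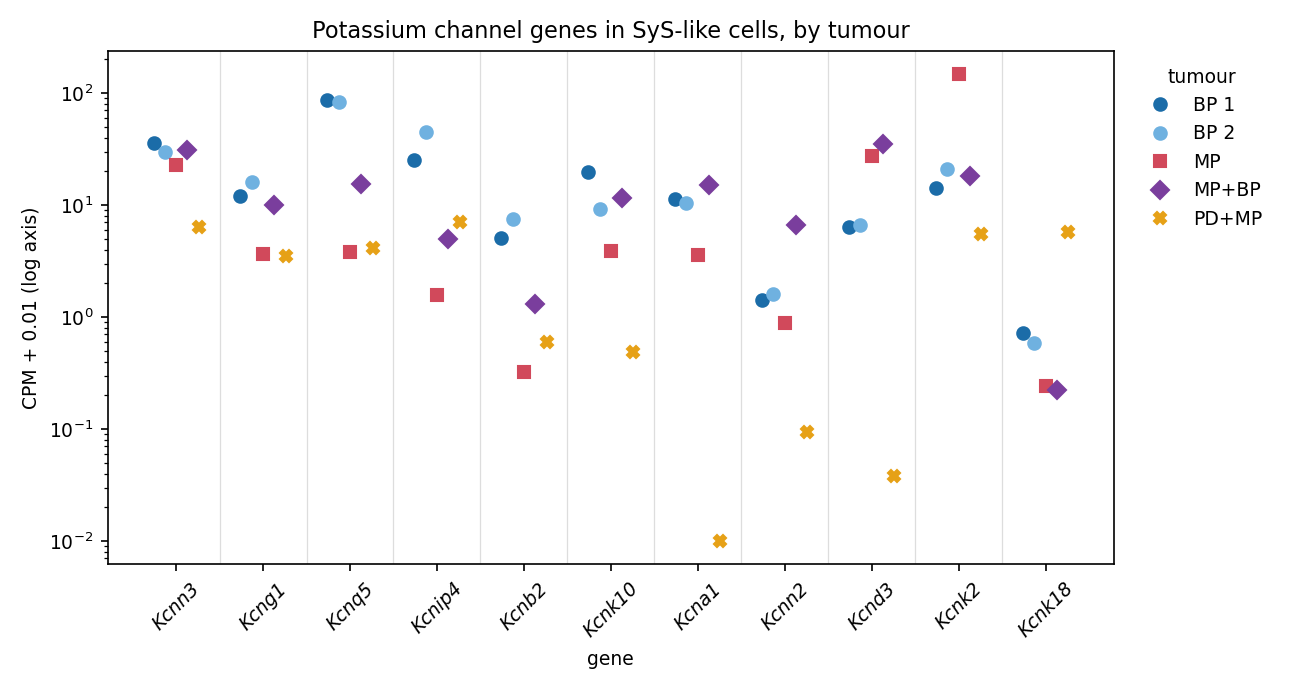
SyS-like level of 11 potassium channel genes (x axis) in each of the 5 tumours (points), as CPM + 0.01 on a log axis. The tumour PD+MP (crosses) is lowest for Kcnn3, Kcnd3 and Kcna1 but highest for Kcnk18, MP (square) is highest for Kcnk2, and both BP tumours (circles) are highest for Kcnq5.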

How the data were processed

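UMI counts per gene and cell were deposited by the authors as Cell Ranger 7.2.0 filtered matrices (mm10), neither normalized nor corrected for free RNA. Cells needed 500 UMIs in those matrices. Here, cells with at least 750 genes and at most 25% mitochondrial UMIs were kept, and the highest Scrublet scores, up to a share expected from the number of cells, were removed as doublets. Clustering used 3000 features without potassium channel or partner genes (scanpy 1.11.5, leidenalg 0.10.2, resolution 1). Clusters were named from at least 3 markers, so names are rebuilt and may differ from the study's. Sums of counts over each class of a tumour entered edgeR 4.0.16 (TMM, filterByExpr, quasi-likelihood, Benjamini-Hochberg adjusted p under 0.05 over all genes), with the tumour as a block between classes, whose sums come from 1 library. DESeq2 1.42.0 was an alternative. No Cell Ranger intron or strand setting is given in the sources used here. Coordinates are from GENCODE M21 (GRCm38).

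Some marking genes counted above are not reported here by name. Genes and lists were chosen with earlier results of these data known. Named genes were, per class, up to 8 marks by smallest difference and up to 4 partner genes, the 8 genes with widest range over tumours among those with 5 CPM in 1 tumour, and genes of known role. *Kcnip4* as a mark, *Amigo1*, *Kcne1*, *Kcng3*, *Kcnk5*, *Kcnu1*, *Slc12a2*, *Kcnd2*, *Kcnq3* by label, *Kcnmb2*, *Kcng1* by label and *Kcnab3* were named after their values were seen. Both BP tumours have their own label and entered as 2 tumours. Their SyS-like sums differed beyond counting noise (median chi-square 4.76 against 0.455 over 21380 genes), so they are not the same library, but this does not tell whether they are independent. P-values by label weigh a difference against the estimated spread between these tumours. Those between classes weigh it against how far class differences vary from tumour to tumour, estimated in 1 fit that all class contrasts share. Pooled-ratio intervals are 95% exact intervals, bounds against 0 UMIs use 3 counts over the group, and both cover counting error only. On simulated data with 100 genes changed per fold size, the class comparison recovered 84% of 4-fold and 99% of 8-fold changes and the label comparison 38% and 77%. The changed genes were drawn only from those above a set expected count in the median sum, so recovery of rarer genes was not measured. All simulated sums shared the same pooled profile apart from the changed genes. Alternatives are listed in the closing section.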

Additional observations from a re-analysis of the deposited data

Results flagged for a closer look

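In groups of 5 tumours the following single values lay far from the other 4. *Kcnt2* in pericyte-like cells was highest in BP replicate 2 (388.2 CPM, the others 93.9 to 159.8), and *Kcne3* in endothelial-like cells lowest in MP+BP (12.36 CPM, the others 55.1 to 63.5). In macrophage-like cells *Kcnk13* was lowest in PD+MP (68.15 CPM, the others 132.6 to 144.8) and *Fxyd5* lowest in BP replicate 2 (228.2 CPM, the others 336.5 to 376.2). In SyS-like cells *Kcnn2* was highest in MP+BP (6.585 CPM, the others 0.085 to 1.60), *Kcnk18* highest in PD+MP (5.764 CPM, the others 0.215 to 0.714) and *Kcnk2* highest in MP (147.6 CPM, the others 5.55 to 20.9). For normally distributed values, chance puts about 1 in 20 groups past this limit, and CPM values need not be so distributed. Many groups were screened, and which of the listed values are due to chance was not tested.

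For 1 partner gene, the difference between SyS-like and another class pointed one way in every tumour with BP in its label and the other way in both tumours without. *Fxyd1* in SyS-like minus endothelial-like cells averaged 7.366 CPM with BP and -1.353 CPM without. The change of this difference with the label was not tested.

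Among cells outside the 4 classes, *Kcnq5* was counted at 290.4 CPM in 308 T or NK-like cells and 267.0 CPM in 133 cells of a cluster whose leading genes held both a B cell marker (Cd79a) and a dendritic marker (Siglech), so that its cell type is uncertain. The highest of the 4 classes pooled was 35.0 CPM. *Kcnma1* was counted at 125.0 CPM in 148 fibroblast-like cells against at most 17.6 CPM in the 4 classes pooled.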

How the results depend on the processing

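Every alternative but 1 was planned, the one added after seeing the data counting the unnamed cells as SyS-like, which left the class counts at 11, 6, 7 and 5. Requiring 10 counts in every sum left 1 gene testable and gave 0 SyS-like, 1 pericyte-like, 0 endothelial-like and 0 macrophage-like marks. Without a filter 17 of 92 genes marked SyS-like cells, as did 3154 of all 27413 genes, and 6, 7 and 7 marked pericyte-like, endothelial-like and macrophage-like cells. Thinning every class sum to the smallest in its tumour left 20 genes testable. Of these, 4 marked SyS-like, 6 pericyte-like, 6 endothelial-like and 2 macrophage-like cells. Among all 10706 genes tested there, 1159, 760, 995 and 1790 marked these classes in that order. Depth thus limits the SyS-like and macrophage-like counts. Leaving out 1 tumour in turn gave 9 to 11 SyS-like, 6 to 7 pericyte-like, 7 to 9 endothelial-like and 5 macrophage-like marks, and 0 to 3 genes by label, the 3 (*Kcnn3*, *Kcna1* and *Kcnk10*) without MP, where DESeq2 on all tumours called 6. The fit without MP left PD+MP as the only tumour lacking BP in its label, so it cannot measure the spread on that side. It also called many genes other than potassium channel genes, so nothing about potassium channels is concluded from those 3 calls. DESeq2 on all tumours likewise called 455 of all 20505 genes. Without the replicate block, that is the tumour in the model, 9, 6, 7 and 5 genes marked the classes. The labels give no replicate numbers shared between histologies, so no paired fit by label was possible.

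For single genes 736 of the values kept direction and side of the threshold, 34 fell below it, 14 passed it and 5 turned direction. By label, with 1 tumour left out in turn, the log2 difference ran from -1.15 to 8.92 for *Kcnd3* (-0.85 without PD+MP, lowest without MP+BP), from -3.66 to 1.04 for *Kcnk18* (turned without PD+MP) and from -3.10 to 1.56 for *Kcnk2* (turned without MP). The highest *Kcnd3* value, without MP, was set against the 2 UMIs of PD+MP and is no bound. *Kcnma1* in the class comparison turned to -0.36 with fibroblast-like cells in the mural class, which hold it at a higher level.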

Other observations

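Rarer cells held further potassium channel genes, given as pooled values without a test because each had few cells. Besides *Kcnq5*, T or NK-like cells held *Kcnn4* at 33.1 CPM (95% counting interval 22.4 to 47.3), *Kcnab2* at 27.6 CPM (17.9 to 40.8) and *Kcnmb4* at 36.4 CPM (25.1 to 51.2). The 291 dendritic-like cells held *Kcnn4* at 24.8 CPM (18.4 to 32.6) and the silent modifier *Kcng3* at 5.94 CPM (3.07 to 10.4). The 233 mast-like cells held *Kcne3* at 68.0 CPM (51.2 to 88.5), beside 49.6 CPM in the highest of the 4 classes pooled. The 148 fibroblast-like cells held the leak channel *Kcnk5* at 9.24 CPM (4.92 to 15.8), all from 1 tumour, and *Kcnu1*, a pH-sensitive channel of sperm, at 8.53 CPM (4.41 to 14.9). SyS-like and unnamed cells together reached similar levels in single tumours. They held *Kcnk5* at 10.99 CPM in PD+MP, the source of 123 of the fibroblast-like cells, and *Kcng3* at 6.98 CPM in MP+BP. Their *Kcnu1* level was 8.23 CPM in MP+BP but 0.842 CPM in PD+MP.

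Within the SyS-like and unnamed clusters, *Kcnip4* was counted at 176.7 CPM in the 1358 cells of unnamed cluster 14 and 106.9 CPM in the 484 cells of SyS-like cluster 21, and at 40.5 CPM or less in the other clusters with SyS markers. *Kcnq5* was counted at 168.6 CPM in unnamed cluster 22, 119.1 CPM in unnamed cluster 7 and 100.4 CPM in SyS-like cluster 1. Clusters draw on different tumours, so these values combine cluster and tumour.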
